A study of Homo sapiens with 3 samples.

Results

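The genes described here are those of the RNA binding motif (RBM) family, whose symbols are RBM followed by a number. They were taken by symbol from the protein-coding genes of chromosomes 1 to 22 and X, leaving out RBM15, RBM15B, RBM25 and RBM39, which gave 33 genes among 19974. A peak was counted for a gene when its centre lay in the gene span, and 21 of the 33 genes held at least 1, with 49 peaks in all out of 20907 on these chromosomes. The symbol alone defined the group, with no measured value.

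The cells were LS174T, an established line of human colon adenocarcinoma. They carried HA-tagged mouse Pxr, introduced by transfection 24 h earlier. Pxr is the pregnane X receptor, a nuclear receptor that senses drugs and bile acids. RNA was crosslinked to protein by UV light of 254 nm at 400 mJ/cm2 and recovered by eCLIP, in which a protein is precipitated with the RNA bound to it and that RNA is sequenced. The groups were 1 input library and 2 libraries of the PXR immunoprecipitate, all from transfected cells, so every value comes from cells that held the mouse construct. Antibodies against PXR, HA and a control IgG are named in the labels, without the library each one served. The data are 1 peak list of the immunoprecipitate. It gives no value per library, so nothing below has a replicate error and no test between samples was made. Fold, the authors' ratio of a summit to its background with 1 added to each, and −log10 q are the authors' values. Reads at a summit and background reads in 10 kb were recovered from fold and −log10 p.

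RBM proteins carry RNA recognition motifs, compact folds that bind single-stranded RNA. Members act at many steps of RNA life: they choose exons, form part of the spliceosome, mark spliced junctions, guide nuclear RNA decay, help to make ribosomes and control mRNA stability and editing. In the gut epithelium the best known member is RBM47, a partner of the APOBEC1 enzyme in C-to-U editing. A peak within an RBM gene is a place in its span where RNA fragments gathered, and where genes overlap they may come from another gene. Such a list tells nothing of what the RBM protein itself binds. The RNA level and binding to PXR cannot be told apart here, since no value per library was used.

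Of 11 colon epithelium markers 10 held a peak, among them EPCAM, KRT8, CDX2 and MUC2, and KRT20 held none. No peak lay in 5 blood, 4 liver or 5 connective tissue and vessel markers. Over all coding genes 41.7% held a peak. The 49 RBM peaks had 6 to 74 reads at the summit.

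At 2 genes the peak spanned the first annotated base, so that part of its sequence is known from the RefSeq promoter table (GRCh38.p14, whose chromosome coordinates are those of hg38). The windows are shown because they place the edge of each peak against the annotated start. That edge is the authors' call, with no peak narrower than 200 bases, so it need not be the end of the RNA. Each runs 5′ to 3′ on the gene's strand, from 250 bases before the start to 50 bases after it, with the bases under the peak in capitals. The RBM33 window lies at chr7:155644411-155644710 on the plus strand, and the RBM7 window at chr11:114400416-114400715 on the plus strand.
RBM33: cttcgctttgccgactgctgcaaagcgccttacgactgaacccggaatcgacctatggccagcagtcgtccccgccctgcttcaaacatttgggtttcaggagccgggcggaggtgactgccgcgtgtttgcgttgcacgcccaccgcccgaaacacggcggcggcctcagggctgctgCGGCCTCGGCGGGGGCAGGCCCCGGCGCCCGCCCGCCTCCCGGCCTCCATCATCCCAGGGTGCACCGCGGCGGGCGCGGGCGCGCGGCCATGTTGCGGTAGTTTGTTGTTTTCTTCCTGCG
RBM7: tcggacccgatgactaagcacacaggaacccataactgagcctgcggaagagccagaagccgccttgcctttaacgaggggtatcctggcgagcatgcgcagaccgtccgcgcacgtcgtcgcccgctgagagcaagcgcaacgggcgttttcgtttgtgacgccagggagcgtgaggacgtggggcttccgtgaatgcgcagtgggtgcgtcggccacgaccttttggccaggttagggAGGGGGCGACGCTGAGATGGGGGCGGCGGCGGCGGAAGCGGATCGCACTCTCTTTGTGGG

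In RBM33 the peak covered 121 bases of the window, 71 before the annotated start and 50 after it. Of those covered bases 76.0% were G or C, against 69.0% in the whole window. The RBM7 peak covered 60 bases, 10 before the start and 50 after it, with 71.7% G or C against 64.7%. Peaks of RBM6, RBM27 and RBM12 began later and covered 12, 6 and 4 bases of their windows, all after the start. The motif GGCGGC, searched on both strands of the first listed window of each gene, is in both sequences above. In RBM33 this motif lies only in the bases before the peak, and in RBM7 it is found under the peak. It was in 5 of 12 windows of members with a peak within 500 bases of the upstream end. The count was 3 of 9 for members with other peaks only and 5 of 9 for members without a peak. Windows at another start of RBM47 and of RBM46 also hold the motif and were not counted. The motif was in 45.9% of all 15812 coding-gene windows and in 58.3% of those of coding genes with a peak. It was chosen after the sequences were seen, and a match describes the letters only.

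RBM genes held a peak more often than coding genes at large. The share was 21 of 33 (63.6%, Wilson 95% interval 46.6 to 77.8%), against 41.7% of all 19974 coding genes, and 14 of 33 (42.4%) held 2 or more peaks, against 24.4%. Related families stood higher: 33 of 38 HNRNP and SRSF genes (86.8%, 72.7 to 94.2%) and 38 of 53 DEAD and DEAH box helicase genes (71.7%, 58.4 to 82.0%) held a peak. The intervals of the 3 families overlap, and no test of these differences was made. When peaks below the median −log10 q of 9.14 were left out, 12 RBM genes held one (36.4%, 22.2 to 53.4%), against 26.0% of coding genes, which lies inside the interval. These 12 were RBM3, RBM4, RBM5, RBM10, RBM12, RBM14, RBM17, RBM26, RBM27, RBM33, RBM34 and RBM47.

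A longer gene has more room for peaks, so the shares were also compared by length. The median RBM span was 27.2 kb, against 24.2 kb for coding genes. Under 10 kb, 3 of 4 RBM genes held a peak (30.1 to 95.4%), against 28.3% of coding genes of that length. From 10 to 30 kb the count was 8 of 15 (30.1 to 75.2%), against 42.1%. It was 6 of 9 from 30 to 100 kb (35.4 to 87.9%), against 49.8%, and 4 of 5 above that (37.6 to 96.4%), against 50.3%. The RBM share was the higher in each class, with few genes in every one. Only in the shortest class did the interval leave out the coding-gene share.

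**Figure D1:**
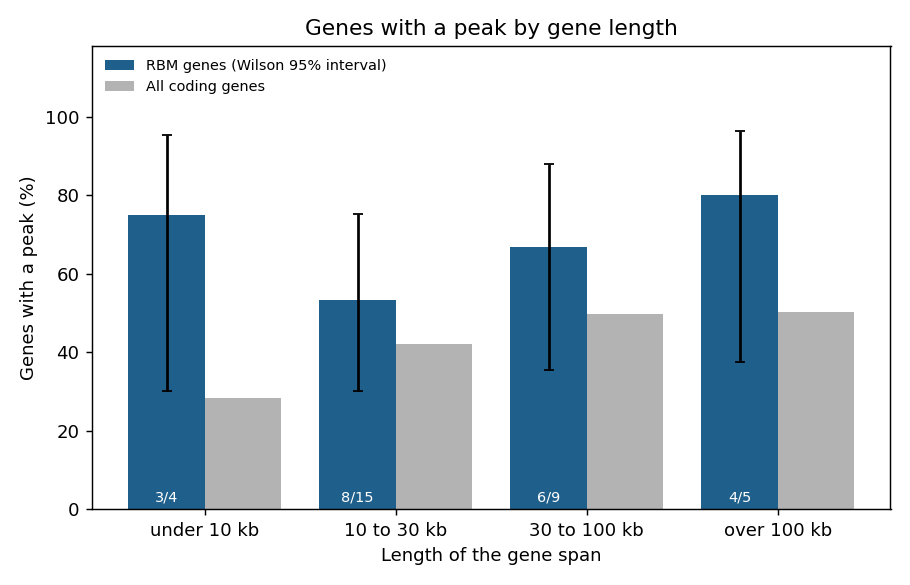
Percentage of genes with at least 1 peak centre (vertical axis) by length of the gene span (horizontal axis). Blue bars are RBM genes with Wilson 95% intervals and the count of genes, grey bars are all coding genes; the RBM bars run from 53.3 to 80.0% and the coding-gene bars from 28.3 to 50.3%.

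The typical RBM peak was close in fold and depth to the typical coding-gene peak. Their median fold was 5.75 (order-statistic 95% interval 5.38 to 6.43), against 5.93 over all 19265 coding-gene peaks. The median depth was 21 reads at the summit (19 to 25), against 22. A fold of 10 or more was reached by 3 of the 49 (6.12%, Wilson interval 2.10 to 16.5%), against 11.6% of coding-gene peaks, which lies inside the interval. None of the 49 had over 100 reads (0 to 7.27%), against 3.72% of coding-gene peaks, a share that is also inside the interval. In HNRNP and SRSF genes 16 of 108 peaks passed 100 reads (14.8%), and the median was 43.5 reads. Helicase peaks had a median of 21 reads. Widths of RBM peaks ran from 200 to 1148 bases, with a median of 279, and 6 of them were 200 bases wide, the narrowest in the list.

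All 49 RBM peaks lay on the strand of their gene. Strand was known for 30 of the 33 members, and for all 21 with a peak. Among peaks that lay in no other gene the count was 36 of 36 (100%, Wilson interval 90.4 to 100%), against 98.4% for coding genes. The remaining 13 peaks lay where genes overlap. Peaks in 1 gene only made up 73.5% of RBM peaks, against 87.7% of coding-gene peaks. In RBM10, RBM38 and RBM5 the other gene (NDUFB11, RBM38-AS1 and SEMA3F-AS1) is on the opposite strand from the peak. In RBM12 the other gene, CPNE1, is on the same strand, and the peaks of RBM14, RBM4 and RBM27 also lie in the readthrough genes RBM14-RBM4 and RBM27-POU4F3, so these 10 peaks cannot be assigned to 1 RNA.

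**Figure D2:**
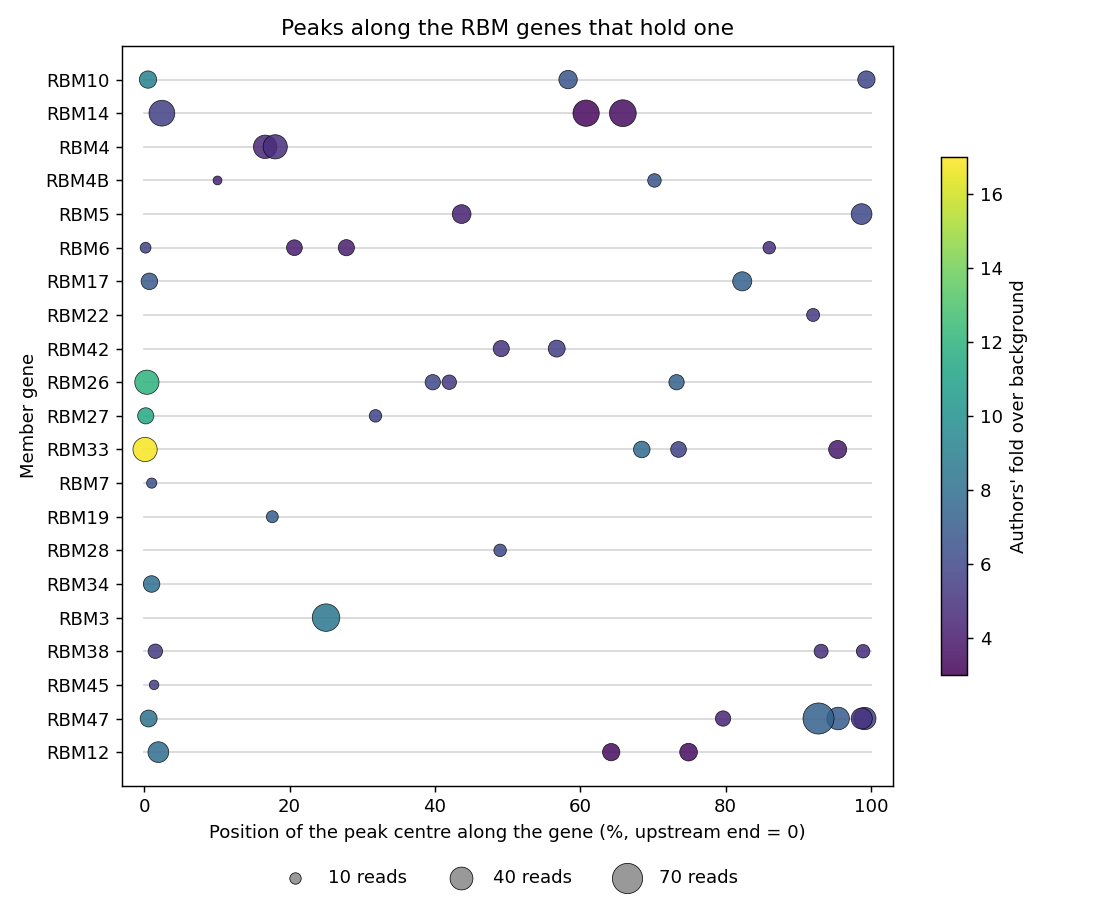
Each point is 1 of the 49 peaks, placed by its centre along the gene from the upstream end (0%) to the downstream end (100%), for the 21 RBM genes with a peak in order of their role. Area shows reads at the summit and colour the authors' fold; the 3 highest folds, of RBM33, RBM26 and RBM27, are at the far left, and RBM47 has 5 of its 6 peaks at the right.

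The members are described next by role, in small groups. Over all RBM genes 63.6% held a peak, and over all coding genes 41.7%. Splicing regulators held peaks in 6 of 10 members, with 16 peaks. RBM14, a coactivator found in paraspeckles, was the deepest of them. Its peaks on chromosome 11 had 51 reads at 66616732 to 66617175, 53 at 66624534 to 66624902 and 55 at 66625126 to 66625655 (exact Poisson interval 41.4 to 71.6). The folds were 5.62, 3.31 and 3.49, over backgrounds of 413, 765 and 753 reads in 10 kb. RBM14 thus had even depth at all 3 places, and the fold of the first exceeded the others where the background was lower. The neighbouring RBM4, which regulates splicing and translation, had a pair of peaks 91 bases apart, with 42 and 45 reads at folds of 4.54 and 4.84. Its close relative RBM4B, on the other strand, had 14 reads at 66668658 to 66669020 and 6 reads at 66676463 to 66676712, with folds of 6.70 and 4.43. RBM4 and RBM4B are similar in sequence, so the split of reads between them is uncertain.

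RBM5, RBM6 and RBM10 are related regulators of exon choice, and RBM5 and RBM6 are neighbours on chromosome 3. RBM5 had 27 reads at 50101965 to 50102164 and 33 reads (22.7 to 46.3) at 50118401 to 50118856, where the centre lay 392.5 bases from the downstream end of the gene. RBM6, which spans 137 kb, had 9 reads in a peak centred 259 bases from its upstream end, then 19, 20 and 12 reads farther along, at folds of 5.81, 4.05, 4.10 and 4.92. RBM10, on chromosome X, had 23 reads at 47145287 to 47145587, 26 at 47169360 to 47169591 and 23 at 47186263 to 47186828. Its depth was nearly level from end to end, while the folds were 9.09, 6.68 and 6.06 over backgrounds of 82, 152 and 148 reads. RBM11, RBM20, RBM23 and RBM24 held no peak.

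Among spliceosome and exon junction proteins 3 of 6 members held a peak. RBM17, a factor of 3′ splice site recognition, had 21 reads at 6089123 to 6089350 on chromosome 10, near its upstream end, and 28 reads (18.6 to 40.5) at 6112269 to 6112554, with folds of 6.83 and 7.32. RBM42, a protein of the tri-snRNP, had 20 and 22 reads in peaks 438 bases apart in the middle of the gene. RBM22, which sits at the catalytic centre of the spliceosome, had 13 reads (6.92 to 22.2) at 150691442 to 150691779 on chromosome 5, 818.5 bases from its downstream end. No peak lay in RBM8A, a core protein of the exon junction complex, or in RBM41 and RBM48, proteins of the minor spliceosome. Of the RBM8A partners EIF4A3, MAGOH and CASC3 held a peak, with at most 28, 9 and 29 reads, and MAGOHB held none. Of 4 other spliceosome partners, SF3B1, U2SURP and PUF60 held 7, 5 and 1 peaks, and ARMC7 held none.

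All 4 members that act in nuclear RNA decay and export held a peak, 11 in all, and they hold the 3 highest folds of the family. The group is small, and over all RBM genes 63.6% held a peak. RBM26, RBM27 and RBM33 are long, with spans of 94.4, 85.6 and 137 kb. Of coding genes of 30 to 100 kb 49.8% held a peak, and of longer ones 50.3%. RBM33, known for a part in mRNA export, had 45 reads (32.8 to 60.2) at the summit of the peak at 155644590 to 155645061, downstream of the window shown above, where the 10 kb background held 87 reads and the fold was 16.8. Its 3 other peaks had 21, 19 and 25 reads at folds of 7.80, 5.75 and 3.98. RBM26 and RBM27 are paralogs that join the machinery feeding polyadenylated nuclear RNA to the exosome. RBM26 had 45 reads and a fold of 12.0 at 79405674 to 79406141 on chromosome 13, and 16 to 18 reads in 3 peaks within the gene. RBM27 had 20 reads (12.2 to 30.9) and a fold of 11.4 at 146203649 to 146203924 on chromosome 5, and 12 reads in a peak farther along. In these 3 genes the most upstream peak was the deepest and also had the highest fold, with its summit 230, 399 and 186 bases inside RBM33, RBM26 and RBM27. RBM7, a subunit of the nuclear exosome targeting complex, had 8 reads (3.45 to 15.8) in the peak at 114400656 to 114400881, with the summit 136 bases inside the gene and past the window shown. The partners of these proteins, ZCCHC8, MTREX, ZFC3H1 and PABPN1, held 2, 2, 1 and 4 peaks, although every PABPN1 peak lay where genes overlap.

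Each of the 3 members with a part in ribosome synthesis held a single peak. RBM34 had 21 reads (13.0 to 32.1) and a fold of 8.03 at 235160833 to 235161057 on chromosome 1, 305 bases from its upstream end. RBM28 had 12 reads (6.20 to 21.0) at 128321176 to 128321375 on chromosome 7, in a peak 200 bases wide. RBM19 had 11 reads (5.49 to 19.7) at 113939854 to 113940070 on chromosome 12. Over the 150 kb of RBM19 that is 0.0669 peaks per 10 kb, the lowest density among members with a peak.

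Among members linked to stability, editing and stress 4 of 5 held a peak. RBM47, the editing partner of the gut, had the most peaks of the family, 6, and its deepest summit. The peak at 40437714 to 40438861 on chromosome 4 was 1148 bases wide and had 74 reads (58.1 to 92.9) at a fold of 7.31. Toward the downstream end followed peaks of 39 reads at 40432548 to 40432826, 34 at 40425811 to 40426054 and 38 at 40424896 to 40425204, with folds of 7.04, 5.01 and 5.75. A peak of 18 reads lay at 40465443 to 40465650, with a fold of 4.46. Thus 5 of the 6 peaks lay from 79.6% of the way on in this 208 kb gene. The sixth, at 40629422 to 40629745, had 22 reads and the highest fold of the gene, 8.27, and was centred 1268.5 bases from the upstream end but 280.5 bases from another annotated start. RBM47 also has annotated starts farther inside its span, at 40515985 and 40514581. The peak of 18 reads was centred 49034.5 bases from the nearest start, so places along RBM47 depend on the start used. APOBEC1 and A1CF, the other proteins of C-to-U editing, held no peak, as was so for 58.3% of all coding genes.

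RBM3, a cold-inducible protein, had 58 reads (44.0 to 75.0) and a fold of 8.48 in 1 peak of 848 bases, at 48575731 to 48576578 on chromosome X. Its Poisson interval overlaps that of RBM47 above it and RBM14 below it, so the order of the 3 deepest genes is not settled by counting error alone. RBM38, a p53 target that binds mRNA of cell cycle genes, had 16, 15 and 14 reads in 3 peaks on chromosome 20, the first near its upstream end and the others from 93.1% of the way on. RBM45, known from neurons, had 7 reads (2.81 to 14.4) at 178112633 to 178112963 on chromosome 2, the fewest of any member's deepest peak. Of the remaining 5 members, RBM12 alone held peaks, with 24 and 23 reads within the gene and 33 reads near the upstream end, at 35664324 to 35664854 on chromosome 20.

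**Figure D3:**
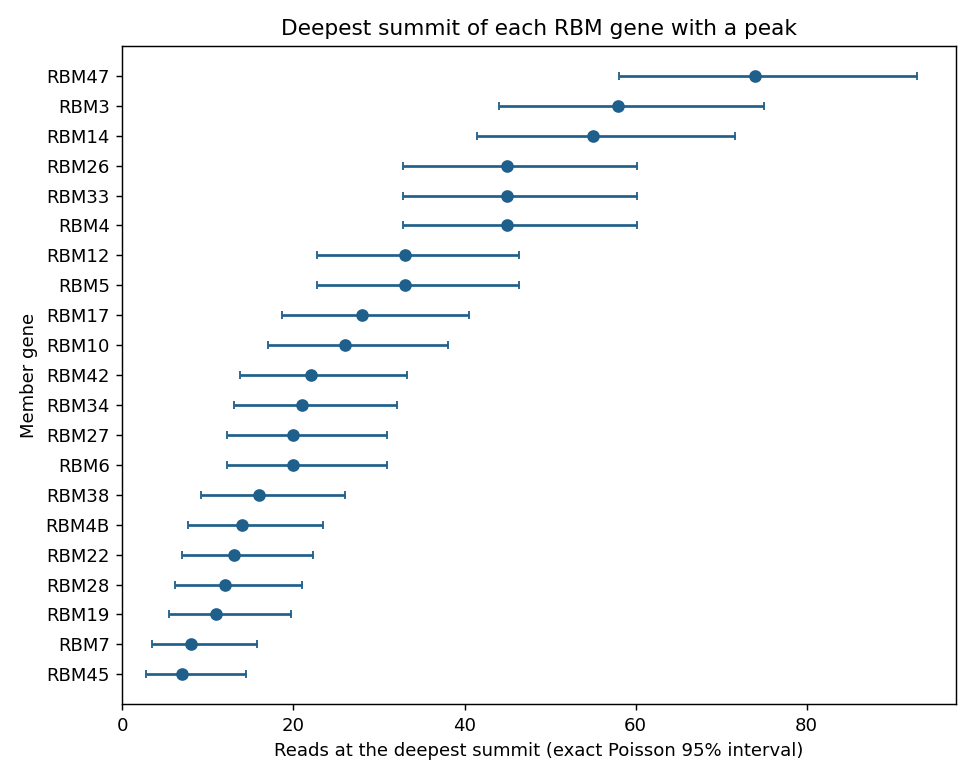
Reads at the deepest summit of each of the 21 RBM genes with a peak (horizontal axis), with exact Poisson 95% intervals that cover counting error only. RBM47, RBM3 and RBM14 stand at the top with 74, 58 and 55 reads and overlapping intervals, and RBM7 and RBM45 at the bottom with 8 and 7.

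No peak lay in 12 members: RBM8A, RBM11, RBM12B, RBM18, RBM20, RBM23, RBM24, RBM41, RBM43, RBM44, RBM46 and RBM48. They include the 5 members listed from general knowledge as expressed in a few tissues. These are RBM20 and RBM24 of heart and muscle, RBM11 of brain and testis, and RBM44 and RBM46 of germ cells. That list leaves out RBM47 and RBM45, linked above to gut and neurons, which held 6 and 1 peaks. Over all coding genes 58.3% held no peak. The median span was 29.7 kb for RBM genes with a peak and 19.9 kb for those without, against 33.3 and 18.5 kb over coding genes. The part of length was not tested. A gene without a peak may lack RNA in these cells or enough reads, and which applies was not tested. Of the other RBM-named genes, RBMX, RBMX2 and RBMXL1 held a peak and RBMS1, RBMS2 and RBMS3 held none. The 4 genes left out of the symbol rule all held peaks: RBM25 and RBM39 held 6 each, RBM15B 4 and RBM15 2.

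Of the 21 RBM genes with a peak, 12 held one near the upstream end of the gene (57.1%, Wilson interval 36.5 to 75.5%), against 48.7% of coding genes with a peak on their strand. Such peaks, centred within 500 bases of that end, numbered 12 of 49 (24.5%, Wilson interval 14.6 to 38.1%), against 20.3% of coding-gene peaks on the gene's strand. They lay in 12 genes: RBM6, RBM7, RBM10, RBM12, RBM14, RBM17, RBM26, RBM27, RBM33, RBM34, RBM38 and RBM45. Their summits were 132 to 399 bases from the upstream end. With each gene cut into 4 equal parts, the most upstream part held 18 RBM peaks (36.7%), against 35.6% of coding-gene peaks, and the most downstream part 13 (26.5%, 16.2 to 40.3%), against 37.2% of coding-gene peaks in the latter. The latter share lies inside the interval, and RBM47 holds 5 of the 13.

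Upstream peaks had higher folds over lower backgrounds, at the same depth. Their median fold was 7.35, against 5.44 for the 34 peaks near neither end. Median reads at the summit were 21 and 21.5, and median background reads in 10 kb were 87 and 155.5. Over all coding genes the same medians of fold were 7.83 and 5.52, with backgrounds of 75 and 148 reads. By its definition, fold is higher where the background is lower at the same depth. Why the backgrounds differed was not tested. Among the 14 RBM genes with 2 or more peaks, the most upstream peak had the highest fold in 9 (64.3%, Wilson interval 38.8 to 83.7%), against 63.3% of such coding genes. These were RBM6, RBM10, RBM12, RBM14, RBM26, RBM27, RBM33, RBM38 and RBM47. It had the most reads in 5 of the 14 (35.7%), against 49.0% of coding genes. It had the lowest background in 12 (85.7%, 60.1 to 96.0%), against 59.5%. The shares for fold were close, and the share for background was the one whose interval left out the coding-gene value, by a narrow margin. The 12 include near ties: RBM4, with backgrounds of 424 and 425 reads, and RBM42, with 155 and 156. Such ties were not set apart, so the background share gives no firm difference from coding genes.

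**Figure D4:**
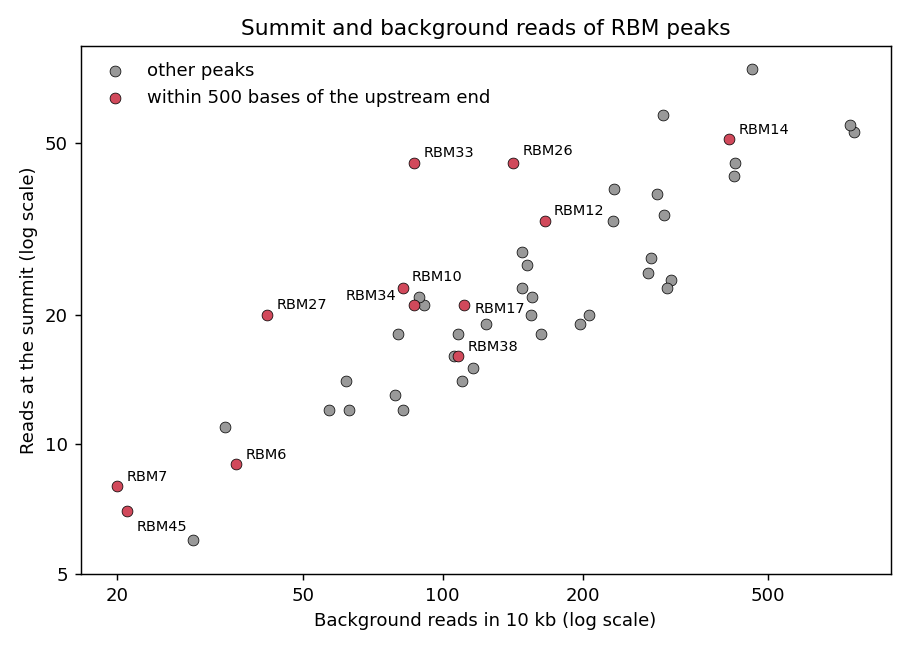
Reads at the summit (vertical, log scale) against background reads in 10 kb (horizontal, log scale) for the 49 RBM peaks, with red for the 12 peaks centred within 500 bases of the upstream end, named by gene, and grey for the rest. RBM33, RBM26 and RBM27 lie above the other peaks of like background, and red points reach from 20 to 413 background reads.

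The base composition of the windows around the start overlapped between RBM genes with and without peaks. The first listed windows of the 12 genes with an upstream peak had a median of 64.2% G or C (range 54.7 to 82.7%). Those of the 9 members with other peaks only had 57.3% (51.0 to 69.3%), and those of the 9 members without a peak in the promoter table had 65.7% (44.3 to 77.7%). The ranges overlap widely. Over coding genes the medians were 66.0% with a peak and 59.7% without.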

How the data were processed

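The labels' protocols describe eCLIP libraries of 1 input and 2 immunoprecipitates. Per the submitters' processing notes, cutadapt, BWA, MACS2 and hg38 were used, without versions, settings or roles. The sources used here do not say whether the list pools replicates or used the input as control. Fold is therefore not to be read as enrichment over the input library. The deposited columns are a score (the integer part of 10 times −log10 q in all 21031 peaks), a fold ratio, −log10 p, −log10 q and the summit offset in bases. Peaks were called apart on each strand, per the deposited peak names.

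Reads k and background b were recovered from the fold ratio, (k + 1)/(b + 1), taking the whole number k whose upper Poisson tail, beyond k, matches the deposited −log10 p. This met 21028 peaks, and all 49 RBM peaks, within 0.0001 plus a 0.00001 part of the value. For the RBM peaks 50 times b was whole within 0.05, as a count in 10 kb scaled to 200 bases would be. Recovery was tested on simulated data. Intervals cover counting error only, since PCR copies are not independent molecules.

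Gene spans came from the RefSeq table of GRCh38.p14 (59792 genes) and strand from its promoter table (15812 coding genes). Exons were not used here. The members, lists and measures were chosen with earlier results of these data known, and the measures at the upstream end and the motif after seeing the data. By the naming rule every member was named, with all peaks of members holding 5 or more, the deepest peak of each other member, and the peaks of highest fold, most reads and greatest width and those within 2 bases of the narrowest; further peaks were added after their values were seen. Other genes named are partners, markers and genes sharing a span with a peak. Python 3.11.15, scipy 1.17.1 and pandas 2.3.3 were used.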

Additional observations from a re-analysis of the deposited data

Results flagged for a closer look

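Pseudogenes of the family were outside the comparisons, and 3 of 20 in the gene table held a peak. The share over all pseudogenes is not given here, so this count has nothing to be set against. RBM8B, a pseudogene related to RBM8A on chromosome 14, had 17 reads (Poisson interval 9.90 to 27.2) at a fold of 11.3, in a peak of 608 bases at 60397800 to 60398407 over a background of 30 reads in 10 kb. RBM8A itself held no peak. RBM17P4, on chromosome 15 inside DPH6, had 12 reads (6.20 to 21.0) at a fold of 7.30. RBM39P1, on chromosome X, had 3 peaks, the deepest with 44 reads (32.0 to 59.1) at a fold of 12.9. Pseudogenes resemble their parent genes in sequence, so which copy these reads came from is uncertain, and it was not tested.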

How the results depend on the processing

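When peaks below the median −log10 q were left out, 12 members and 24 peaks were left, the median fold rose to 7.17 and the median depth to 33.5 reads, since weaker peaks are removed. No other alternative took a count past 1.5 times its value or a median or share outside its interval. These were overlap by 1 base, −log10 q of 5 or more, 10 or more reads, peaks in 1 gene, peaks on the gene's strand, leaving out peaks within 2 bases of the narrowest width, and adding the 4 left-out genes. The last moved the count to 25 members and 67 peaks, and peaks in 1 gene left 17 members and 36 peaks. The coding-gene share with peaks in 1 gene is not given here. For members in the interquartile range of length the share was 64.7%, against 45.6% of coding genes of that length. Among alternatives chosen after seeing the data, the share near the upstream end ran from 19.4 to 33.3%, and the median fold without those peaks was 5.45. Leaving out a replicate was not possible, as the list gives no values per library. Depth limits the weakest members: RBM7 and RBM45 have no peak of 10 or more reads.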
